A study of Homo sapiens with 6 samples.

Results

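TT is an established cell line from a human medullary thyroid carcinoma, the tumor of the calcitonin-secreting C cells of the thyroid. Its untreated state is described here from the 2 one-color Illumina bead arrays labelled as untreated, out of 6 arrays in all. The other 4 arrays held TT cells exposed to 1 of 2 inhibitors of focal adhesion kinase (FAK), named in the labels Y15 and PF04554878, and they entered only the quantile normalization. No treatment was compared. Per the methods, cells were plated in serum-containing medium and left to attach for a day. The control plates then stayed without compound for a further day before the cells were collected. The labels give TRIZOL for the RNA and speak of frozen tissue there, although the sample is a cell line. No vehicle is named for them, and duplicate plates were used in 1 experiment. The labels do not tie each array to a plate, so the spread between the arrays may be technical, and all values refer to 1 cell line at 1 time.

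C cells are neuroendocrine cells. They translate peptide hormones as longer precursors, cut and amidate them in secretory granules, and release them when calcium rises. The granule matrix is made of acidic granins such as chromogranin A, which is measured in the clinic beside calcitonin and carcinoembryonic antigen. The receptor tyrosine kinase RET, with its GFRA coreceptors, relays signals of the GDNF family, and activating RET mutations drive hereditary and many sporadic medullary carcinomas.

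Each probe was read as a mean bead intensity on a linear scale with no background subtracted. A probe counted as detected when its detection p, the fraction of negative controls that reached its brightness, was below 0.01. Of 47317 probes with values, 17043 (36.0%) were detected on both untreated arrays and 1876 on only 1 of them. The probes named 20045 genes, of which 10688 (53.3%) were detected on both arrays through at least 1 probe. A gene was represented by its detected probe with the highest mean level, where level means log2 of the quantile-normalized intensity. Background intensity, read where the detection p was near 0.5, was 118.5 on array 1 and 114.4 on array 2. The highest intensity was 15983 on array 1 and 16189 on array 2. The 1293 probes just inside the threshold (p from 0.005 to 0.01 on the weaker array) had a median intensity of 156.7 and 146.3. The 1100 probes just outside it (p from 0.01 to 0.02) had medians of 146.0 and 138.6, so the boundary cut through a continuous range.

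The median detected gene had a level of 8.13 and the median undetected gene 6.74. The highest 10% of the detected genes lay above 10.64, and the 99th percentile was 13.33. The SD of a gene's level over the 2 arrays had a median of 0.08. Ranks below run from 1 for the highest level among the 10688 detected genes. They order signal and not RNA molecules, because the brightness of a probe also depends on its sequence. Counts of detected list members below stand against the 53.3% detected among all genes. The lists were chosen with earlier results of these data known, so these shares are descriptions and not tests.

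**Figure D1:**
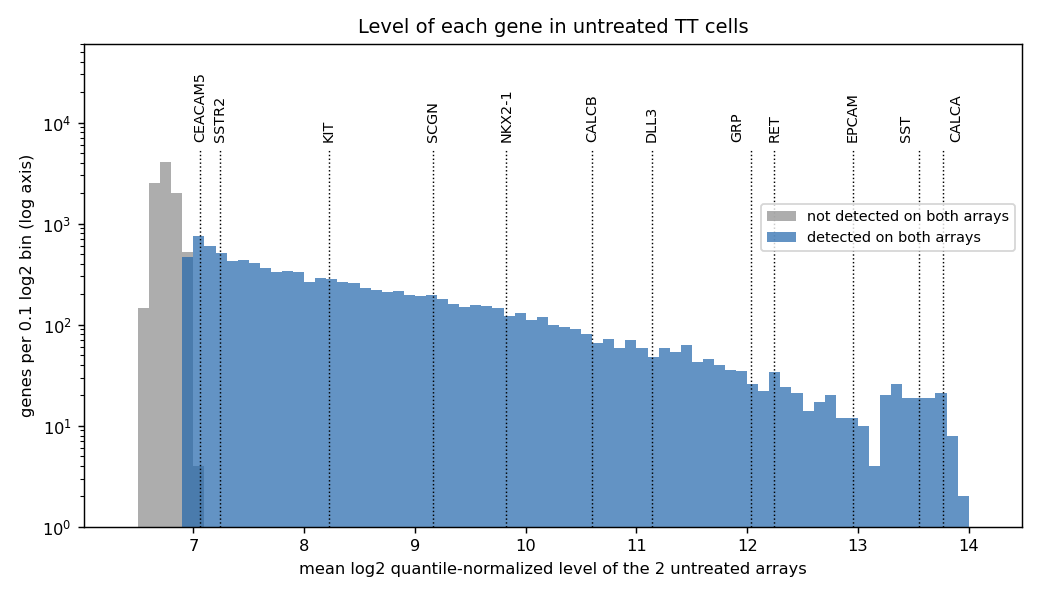
Number of genes (log axis) by mean log2 quantile-normalized level of the 2 untreated arrays, in blue for the 10688 genes detected on both arrays and in gray for the others, and dotted lines mark 12 named genes. CALCA (13.77) and SST (13.55) lie in the cluster at the bright end, while CEACAM5 (7.06) and SSTR2 (7.24) lie next to the undetected genes.

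The 25 highest ranks included the ribosomal protein genes RPS27, RPS25, RPL41, RPLP2, RPL19, RPL3 and RPL38, the pseudogene RPL13AP5, the elongation factor EEF1A1 and the helicase EIF4A1. Tubulin TUBA1C was at rank 1, with 15332 on array 1 and 16070 on array 2, and actin ACTB at rank 3. Histone genes (H3-3A, H4C3, H2AZ1), the ubiquitin gene UBB, the glycolytic enzyme GAPDH, TPT1, HINT1 and the respiratory subunit COX7C were also among them. Other genes stood beside these. PAGE2B, an X-linked gene of a cancer testis family, was at rank 6 with 14501 and 14478. UCP2, an inner mitochondrial membrane carrier, was at rank 7 with 14543 and 14234. S100A4, a calcium-binding protein, was at rank 8 with 14203 and 14721. UCHL1, the ubiquitin hydrolase of neurons and neuroendocrine cells also called PGP9.5, was at rank 14 with 14378 and 13733. The calcitonin gene CALCA followed at rank 19.

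Order within this bright group was loose. The first 100 genes spanned 0.59 log2, from 13.96 down to 13.37, against a median SD of 0.12 among them. Of the 100 highest genes on each array, 69 were shared, and 921 of the 1000 highest. CALCA itself was at rank 6 on array 1 and 46 on array 2, so it cannot be ordered against its neighbors.

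The 3 marker genes of the C-cell lineage were all well above background. CALCA, which encodes calcitonin and by alternative splicing the neuropeptide CGRP, read 14563 on array 1 and 13303 on array 2, a level of 13.77 ± 0.16 (SD, n = 2). Its 3 probes were all bright: the probe designed on the CGRP transcript gave those values, and the probes designed on calcitonin transcripts gave 12022 and 13016, and 12293 and 12438. Probes designed on both kinds of transcript were therefore bright, although a probe may also read the other transcript. RET read 7422 and 6925, a level of 12.25 ± 0.19 at rank 286. CHGA, which encodes chromogranin A, read 6797 and 6832, a level of 12.15 ± 0.29 at rank 314. RET and CHGA were 57.4 to 62.6 times background, while CALCA was 123 and 116 times background.

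Of 12 C-cell hormone and tumor marker genes measured, 11 were detected. Somatostatin (SST), the inhibitory peptide made by a subset of C cells, was next after CALCA at rank 59, with 12810 and 12840, at a level of 13.55 ± 0.01. In bulk RNA, a high level in some cells and a lower level in all cells cannot be told apart. Gastrin-releasing peptide (GRP), a bombesin-like growth peptide, was at rank 339 with 7352 and 5478. CALCB, the gene of the second CGRP, was at rank 1100 with 3378 and 2076. SCGN, the calcium sensor secretagogin, was at rank 2965 with 1300 and 833. The carcinoembryonic antigen family was split. CEACAM6 read 5682 and 5097 (rank 436), whereas CEACAM5, which encodes the clinical antigen itself, read 167 and 173 (rank 9745) and CEACAM1 read 153 and 156 (rank 10344). CEACAM5 and CEACAM6 had 1 probe each, and 1 of 3 CEACAM1 probes was detected, so the split rests on single probes. Neurotensin (NTS) was likewise near the detection boundary with 170 and 143. DLK1, a Notch-like membrane protein of endocrine cells, was the undetected member, with 124 and 120.

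**Figure D2:**
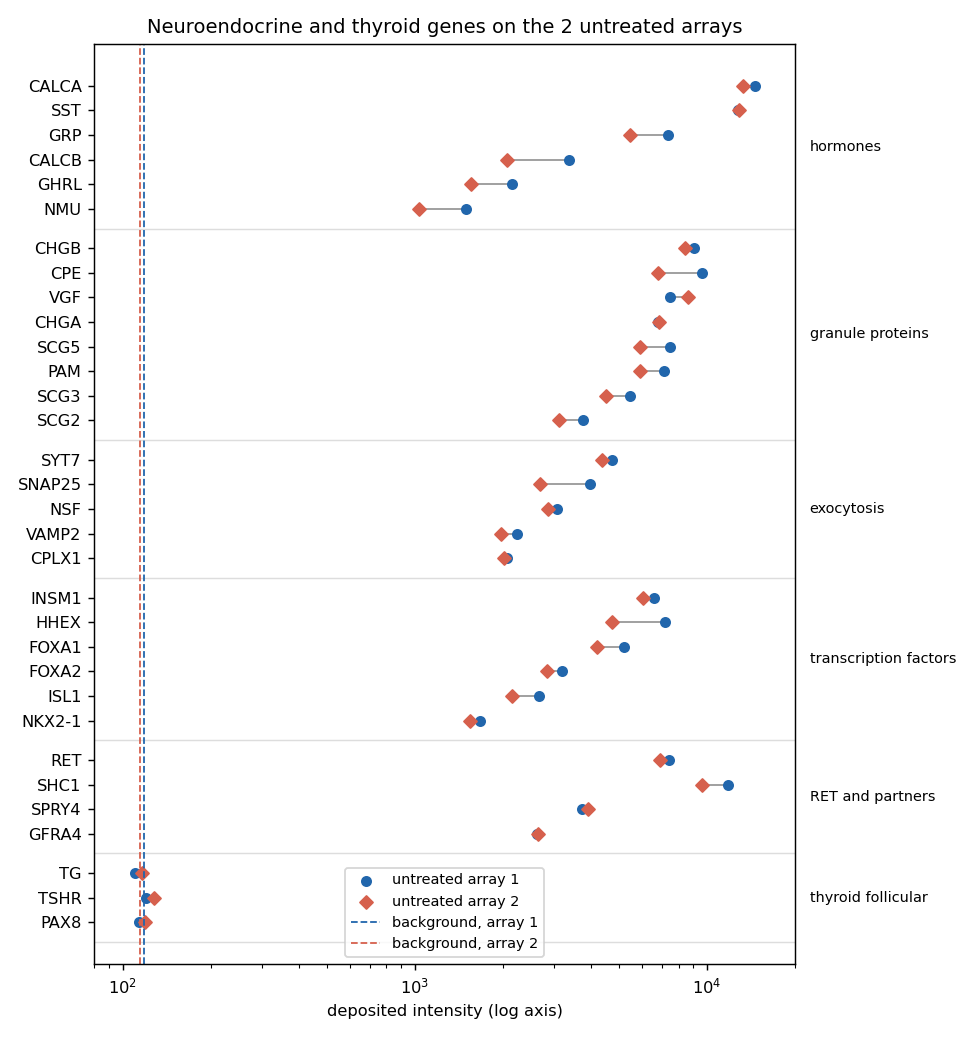
Deposited intensity (log axis) on untreated array 1 (circles) and array 2 (diamonds) for 32 genes in 6 groups, and dashed lines are the background of each array. CALCA and SST read higher than the other genes shown on both arrays, all hormone, granule, exocytosis, transcription factor and RET genes shown read above 1000, and TG, TSHR and PAX8 lie at background.

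The sequences before the start sites of 4 of these secretory genes are shown because 3 of them share a whole cyclic AMP response element, TGACGTCA, a palindrome that reads the same on both strands and is bound by CREB family factors. The fourth, CALCA, holds only the shorter core TGACG. Each line gives 250 bases before the start site listed from RefSeq (build GRCh38.p14), 5′ to 3′ on the gene's strand. The whole element, or for CALCA the core, is in capitals. For VGF and CHGA the annotated gene begins further upstream than the printed window, so another start may exist.

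SST, chr3:187670395-187670644 (-): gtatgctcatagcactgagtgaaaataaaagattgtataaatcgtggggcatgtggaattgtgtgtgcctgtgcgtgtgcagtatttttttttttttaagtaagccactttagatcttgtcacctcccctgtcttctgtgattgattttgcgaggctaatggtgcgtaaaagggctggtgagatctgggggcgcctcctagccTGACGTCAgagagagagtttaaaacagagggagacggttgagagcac
VGF, chr7:101165570-101165819 (-): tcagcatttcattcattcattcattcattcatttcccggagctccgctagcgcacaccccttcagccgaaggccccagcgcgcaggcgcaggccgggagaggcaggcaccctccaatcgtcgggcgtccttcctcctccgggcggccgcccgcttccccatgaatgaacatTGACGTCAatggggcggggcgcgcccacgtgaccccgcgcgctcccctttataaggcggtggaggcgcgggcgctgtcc
CHGA, chr14:92922900-92923149 (+): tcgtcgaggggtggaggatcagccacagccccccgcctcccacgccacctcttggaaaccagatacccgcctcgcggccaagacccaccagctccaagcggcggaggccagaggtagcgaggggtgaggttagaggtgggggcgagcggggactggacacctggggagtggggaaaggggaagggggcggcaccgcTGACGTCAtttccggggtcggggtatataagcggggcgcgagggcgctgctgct
CALCA, chr11:14972352-14972601 (-): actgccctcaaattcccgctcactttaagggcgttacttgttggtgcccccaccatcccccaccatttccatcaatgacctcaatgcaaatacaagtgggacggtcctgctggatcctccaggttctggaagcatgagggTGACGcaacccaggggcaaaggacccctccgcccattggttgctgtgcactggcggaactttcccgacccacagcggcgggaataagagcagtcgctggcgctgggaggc

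The element began 47 bases before the start in SST, 79 in VGF and 54 in CHGA, and the core in CALCA began 110 bases before it. Among 11159 measured genes with a single start in the promoter table, TGACGTCA was found in 217 of 6169 detected genes (3.52%) and 78 of 4990 undetected genes (1.56%). It was found in 16 of the 301 such genes among the 500 highest ranks (5.32%). Of 29 detected genes for hormones, granule proteins and their processing, 3 held it, the 3 printed above. Of 26 undetected genes of the same lists, 1 held it (CARTPT, the precursor of the CART peptide). The core TGACG, read on both strands and contained in the whole one, was common, at 32.3% of detected and 19.1% of undetected genes. The TATA motif TATAAA, read on both strands, was in the SST and VGF sequences, and in 5.35% of detected and 15.8% of undetected genes. Its position was not considered. In SST it lies near the far end of the printed window, and CHGA holds the unmatched tatataag near the start site. These counts therefore do not say which genes have a TATA box. A match describes letters in this window and is not a measured binding site.

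Granule protein genes were detected in most cases. Of 21 genes measured, 17 were detected (81.0%, against 53.3% of all genes), 7 of them among the first 1000 ranks. Chromogranin B (CHGB) read 9027 and 8409 (rank 210). VGF, a granin-like precursor of neuropeptides, read 7452 and 8606 (rank 236), with a wide spread at 12.45 ± 0.47. The secretogranins SCG5, SCG3 and SCG2, which help sort or fill granules, were at ranks 323, 499 and 819, and SCG5 read 7472 and 5917. The granule membrane phosphatases PTPRN and PTPRN2 were at ranks 1279 and 1562. Synaptophysin (SYP), a vesicle membrane protein used to diagnose neuroendocrine tumors, was at rank 1968 with 1641 and 1510. RAB3B, RAB3D, RPH3A and SYTL4, which tether granules to the membrane, were not detected.

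Enzymes that mature the peptides were present for several of the steps. Of 12 prohormone processing genes measured, 8 were detected (66.7%, against 53.3% of all genes). Carboxypeptidase E (CPE), which trims basic residues, read 9592 and 6809 (rank 234). PAM, which amidates the C terminus of calcitonin and CGRP, read 7161 and 5883 (rank 331). PCSK1N, an inhibitor of a prohormone convertase, was at rank 1505, carboxypeptidase D (CPD) at 2177, and the convertases PCSK7 and FURIN at 4963 and 5804. PCSK5, PCSK6, CPZ and QPCTL did not pass on both arrays. The convertases PCSK1 and PCSK2 had no probe assigned to them here, so their level is not known from these values.

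The release machinery was detected in 24 of 29 genes. SYT7, a synaptotagmin that senses calcium, read 4723 and 4365 (rank 562), and 296 and 265 on its next probe. SNAP25, a SNARE of the plasma membrane, read 3993 and 2687 (rank 861), NSF, which takes SNARE complexes apart, 3080 and 2858 (rank 960), and the vesicle SNARE VAMP2 2246 and 1970 (rank 1424). The complexin CPLX1 was at rank 1459 and the syntaxin STX1A at 2676. Undetected members were SYT5, RIMS1, SV2B, SV2C and SYN2.

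Few other hormone genes were bright. Of 55 peptide hormone and neuropeptide genes, 21 were detected (38.2%), below the share of all genes, and those past CALCA, SST, VGF, CHGA, GRP and CALCB were moderate or dim. Ghrelin (GHRL) read 2144 and 1556 (rank 1680), neuromedin U (NMU) 1504 and 1033 (rank 2519) and neuromedin B (NMB) 1067 and 775 (rank 3373). Pro-opiomelanocortin (POMC) was at rank 8187 with 262 and 209. Genes for insulin (INS), glucagon (GCG), gastrin (GAST), cholecystokinin (CCK), VIP and galanin (GAL) were among the 34 not detected, GAL reading 112.3 and 103.8.

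Factors that set neuroendocrine and thyroid identity gave 18 detected of 29 measured (62.1%), near the 53.3% of all genes. INSM1, a zinc finger factor of neuroendocrine cells, read 6580 and 6054 (rank 348). HHEX, a homeobox factor of the thyroid and foregut, read 7194 and 4730 (rank 388). The foregut pioneer factors FOXA1 and FOXA2 were at ranks 540 and 948, FOXA1 with 5223 and 4214. ISL1, a LIM homeobox factor of endocrine cells and neurons, was at rank 1234 and MYT1 at 1918. NKX2-1, shared by thyroid follicular and C cells, read 1677 and 1542 (rank 1922). NKX2-2, SOX4, SOX2 and SOX11 were lower, at ranks 3088, 2302, 5491 and 4750. GATA3, GATA4, GATA6, PAX6, RFX6 and NEUROG3 were not detected.

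Markers of the other epithelial cell of the thyroid were mostly at background. Of 14 follicular cell genes, 3 were detected, HHEX and NKX2-1, which C cells can also express, and the deiodinase DIO1 (1007 and 581, rank 3885). Thyroglobulin (TG) read 110.5 and 116.1, the thyrotropin receptor TSHR 119.9 and 128.2, PAX8 113.6 and 119.2 and the iodide symporter SLC5A5 108.1 and 103.2, none of them detected.

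Several Notch ligands were detected, and none of the 4 receptors was on both arrays. Of 27 pathway genes, 17 were detected (63.0%), near the 53.3% of all genes. DLL3, an inhibitory ligand of neuroendocrine cells, read 3776 and 3584 (rank 762), though its second probe gave only 212 and 181. HES6, which opposes HES1, read 3037 and 2064 (rank 1167), the glycosyltransferase LFNG was at rank 1584, DLL1 at 1890 and HES1 at 2867. NOTCH1 read 145.6 and 135.5 with deposited detection values of 0.0117 and 0.0104, just outside the threshold, NOTCH2 122.4 and 114.4, and NOTCH3 133.0 and 129.1. NOTCH4 read 140.5 and 141.1 and passed on array 2 alone.

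RET stood at the top of the receptor tyrosine kinases. Of 55 such genes, 21 were detected (38.2%), and their median rank was 8009, in the dim part of the range. Next came the collagen receptor DDR1 at rank 1513 (2128 and 1885), though its detected probes lay 3.04 log2 apart. RYK followed at 4657 and the stem cell factor receptor KIT at 5110 (578 and 482). ERBB2, MET and EGFR were detected at low level, at ranks 7162, 7375 and 9670, and MET read 284 on each array. FLT1, KDR and FLT4, the receptors of vascular endothelial growth factors, did not pass on both arrays, nor did PDGFRA, PDGFRB, FGFR1 to FGFR4 or AXL. KDR, with 140.9 and 139.5, passed on array 2 only.

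The 3 RET probes differed among themselves. The probe giving 7422 and 6925 and another giving 761 and 772 were both designed on the transcript of the long isoform RET51, and another, designed on that of the short isoform RET9, gave 3069 and 3389. All 3 were detected on both arrays, and their order does not measure isoform use. With the mean of the 3 probes in place of the brightest, RET was at rank 870.

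RET pathway genes were detected in 27 of 34 cases (79.4%). The adaptor SHC1 was brightest, with 11787 and 9662 (rank 143), but its next probe gave 461 and 470. SPRY4, a feedback inhibitor induced by ERK signaling, read 3744 and 3919 (rank 722), and 257 and 319 on its next probe. AKT1 was at rank 854, with probes from 3660 and 2994 down to 163.3 and 146.1, PTPN11 at 1555 and GAB2 at 1765. Of the coreceptors, GFRA4, which binds persephin, read 2613 and 2649 (rank 1098) on 1 probe, while its other probe was not detected. GFRA1, which binds GDNF, was detected by 3 of its 4 probes, the brightest at 537 and 510 (rank 5133). GFRA2 and GFRA3 were not detected. Of the ERK kinases and targets, MAPK3, MAP2K1, DUSP6, ETV4, ETV5, SPRY1 and SPRY2 lay between ranks 1879 and 2665. DUSP4, GAB1, DOK1, DOK5 and PSPN were not detected on both arrays by any of their probes.

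The target of the study's compounds was detected in untreated cells, at a level that depended on the probe. PTK2, which encodes FAK, read 4711 and 3888, a level of 11.39 ± 0.05 (SD, n = 2) at rank 620. Its second detected probe read only 182.5 and 160.6, near the detection boundary, so the level of PTK2 differs by 4.33 log2 with the probe. Of 30 FAK and focal adhesion genes, 26 were detected. ILK, a scaffold at integrin tails, and vinculin (VCL) followed at ranks 1116 and 1118, the adaptor CRKL at 1557 and the actinin ACTN4 at 2601. LIMS2, NEDD9, TNS1 and FERMT1 did not pass on both arrays. Integrins were sparser, 10 of 26 subunits, led by ITGB1 (2271 and 1754, rank 1515), ITGAE (rank 1549), ITGB5 (3128), ITGAV (4116) and ITGA3 (5435). Of 31 cadherin and adhesion genes, 15 were detected (48.4%, against 53.3% of all genes). CD24, a surface glycoprotein, read 12912 and 10689 (rank 106) on its brighter probe and 1154 and 968 on the other. N-cadherin (CDH2) was at rank 706 with 3803 and 3954 and E-cadherin (CDH1) at rank 1341 with 2148 and 2255. CD44, the hyaluronan receptor, read 125.7 and 123.7 and was not detected.

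Hormone and peptide receptors were the dimmest neuroendocrine list, with 18 of 57 detected (31.6%) at a median rank of 8542 and none among the first 1000. The calcium-sensing receptor CASR, through which calcium drives calcitonin secretion, was highest with 1796 and 1711 (rank 1741). The gastrin receptor CCKBR, the basis of pentagastrin testing, read 404 and 325 (rank 6430). The somatostatin receptor SSTR2 read 170 and 248 (rank 8680, 7.24 ± 0.29). SSTR1 was detected at the boundary, with 156.9 and 136.3 (rank 10638) on 1 of its 2 probes, and SSTR3, SSTR4 and SSTR5 were not detected. Neither were CALCR, CALCRL, RAMP1 and RAMP3, parts of the calcitonin and CGRP receptors, whereas RAMP2 was detected by both of its probes.

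Ion channels and amine enzymes were detected in part. Of 28 voltage-gated calcium and sodium channel genes, 12 were detected (42.9%, against 53.3% of all genes). The auxiliary subunit CACNA2D2 (rank 1272), the T-type channel CACNA1H (1852 and 1936, rank 1605) and CACNA2D3 (rank 1675) led them. In monoamine synthesis, 7 of 16 genes were detected (43.8%). DDC, aromatic L-amino acid decarboxylase, read 8036 and 6482 (rank 285), and the pterin enzymes QDPR, PTS and GCH1, which make or recycle the cofactor of amine synthesis, were at ranks 269, 427 and 2295. The hydroxylases that start each pathway were at background. Tyrosine hydroxylase (TH) read 119.6 and 118.4 and tryptophan hydroxylase (TPH1) 116.9 and 111.4.

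Epithelial and neuronal genes were detected side by side. EPCAM, an epithelial adhesion protein, read 11306 and 9249 (rank 155), the desmosomal DSP 3224 and 3669 (rank 812), KRT7 2266 and 1702 (rank 1546) and KRT8 1989 and 1396 (rank 1847). In all, 15 of 25 epithelial genes were detected (60.0%, near the 53.3% of all genes), and KRT5, KRT14 and KRT20 were not. Of 30 neuronal genes, 22 were detected (73.3%), 8 of them among the first 1000 ranks. After UCHL1 came BEX1, a small X-linked neuronal protein, at rank 29 with 14086 and 13215, although its second probe gave 1560 and 1219. DPYSL3, an axon growth protein, was at rank 156 (10703 and 10146), STMN3 at 309, the intermediate filament gene INA at 439, neuron-specific enolase (ENO2) at 467, BEX2 at 520 and TUBB3 at 675. STMN2, ELAVL3, ELAVL4 and RBFOX3 were not detected.

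Cancer testis antigens, normally confined to germ cells, were detected in 14 of 25 cases, close to the share of all genes, but some were bright. PAGE5 read 10830 and 7892 (rank 179), nearly the same on a second probe, and 151.7 and 145 on another. MAGEA8 read 5241 and 4450 (rank 523), MAGEC2 4447 and 3263 (rank 726), CTAG2 4247 and 2900 (rank 793), MAGEA1 4210 and 2696 (rank 835) and SSX1 2267 and 1938 (rank 1430). Many of these genes have near-identical copies, so a probe may read more than the gene it is named for. PAGE2B, noted above, was not in the list.

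The HOXB, HOXC and HOXD clusters differed in detection, with only 9 or 10 genes measured in each. The detected share lay above the 53.3% of all genes in HOXB and HOXC and below it in HOXD. Of 11 HOXA genes listed only 1, HOXA2, was measured, and it was not detected, so HOXA cannot be compared. In the HOXB cluster 8 of 10 genes were detected, led by HOXB5 (6128 and 5572, rank 386), HOXB8 (4542 and 4120, rank 615), HOXB2 (rank 774) and HOXB7 (rank 1075). In HOXC 8 of 9 were detected, HOXC6 at rank 749 with 3963 and 3450 on the brightest of its 4 probes (the next gave 369 and 334) and the others at 2099 or lower in the order. In HOXD 3 of 9 were detected (HOXD11, HOXD10 and HOXD13), the highest at rank 4479.

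Cell division genes were detected in 36 of 40 cases, 14 of them among the first 1000 ranks. UBE2C, a ubiquitin enzyme of mitotic exit, read 8456 and 7110 (rank 248), though 265 and 278 on its other probe. The replication helicase subunit MCM3 read 6447 and 5672 (rank 370), cyclin D1 (CCND1) 5339 and 6182 (rank 400), TOP2A 6032 and 5377 (rank 405) and CDK4 4859 and 3418 (rank 664). CDK6, CCND2, CCNE2 and MYBL2 were the 4 undetected members, CDK6 with 121.4 and 117.3. Of 27 growth inhibitors and tumor suppressors, 17 were detected (63.0%, against 53.3% of all genes). The CDK inhibitor CDKN1A was at rank 1189 (2605 and 2298) and CDKN1B at 3131, MEN1 at 5816 and RB1 at 7841. CDKN2A read 119.2 and 113.7 and CDKN2B 133.0 and 134.8, neither detected. Of 18 BCL2 family genes, 16 were detected, led by BNIP3 (9323 and 6119, rank 257) and the survival gene BCL2L1 (2784 and 2117, rank 1206), while BCL2 itself was at rank 4412 and the killer BAX at 8895.

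Lists for translation, glycolysis, ribosomal proteins and reference genes served as the upper reference. All 32 translation factors, all 21 glycolytic genes and all 14 reference genes measured were detected, and 68 of 69 cytosolic ribosomal protein genes, at a median rank of 105.5. The exception, RPL10, read 122.8 and 108.6 on the better of its 2 probes. PPIA, a common reference gene, read only 304 and 254 (rank 7485), while PPIAL4A, a near copy of it, read 12471 and 14724. PPIA had a single probe, so its low value rests on that probe.

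Markers of other cell types gave the lower reference. Of 69 genes in lists for fibroblasts, immune cells, endothelium, liver and skeletal muscle, 9 were detected. These were PRRX1 and LUM (fibroblast), CD14, CD68 and AIF1 (immune), TTR, ALB and SERPINA1 (liver) and MB (muscle), and the brightest reading among them was 573.5, of MB on array 1. No endothelial gene was detected on both arrays, and VWF, KDR and EGFL7 passed on array 2 alone at 139.5 to 141.3. The collagen gene COL1A1 (128.9 and 124.2), the leukocyte gene PTPRC (121.4 and 118.7) and PECAM1 (130.5 and 130.8) were at background. Summed intensity over the 12 fibroblast genes was 1712 and 1565, over the 15 immune genes 2227 and 2174 and over the 12 endothelial genes 1531 and 1474. Of 371 olfactory receptor genes, a family added after its values were seen, 4 were detected (OR2A42, OR9A4, OR11H1 and OR1L8), the highest at rank 8782.

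**Figure D3:**
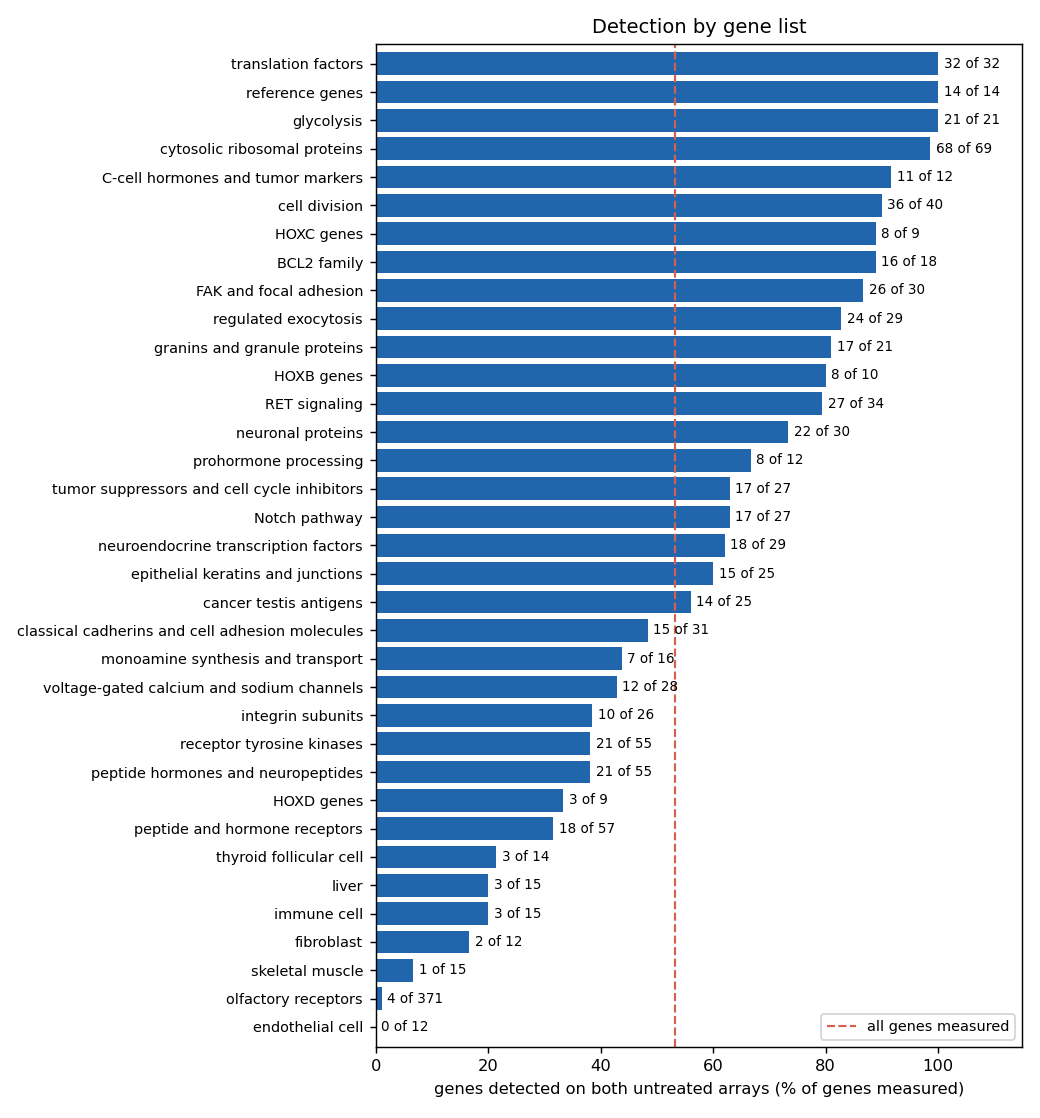
Share of measured genes detected on both untreated arrays (%) in each gene list, with counts beside the bars, and the dashed line is the share over all genes, 53.3%. Translation factors, glycolysis and reference genes reach 100%, granule genes reach 81.0% and exocytosis genes 82.8%, and receptors, follicular thyroid and other cell type markers lie below the line.

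Different probes of a gene disagreed far more than the arrays did. For 2635 genes with several detected probes, the highest and lowest probe lay a median of 0.76 log2 apart, while the 2 arrays differed by a median of 0.14 for the same genes. The gap between probes was over 2 log2 in 453 genes (17.2%) and over 4 in 90. Of 4229 detected genes with several probes, 2412 (57.0%) had at least 1 that was not detected on both arrays. Among the 249 such genes of the 35 lists, 119 had an undetected probe, and 64 of 183 with several detected probes spanned over 2 log2, so a rank given above holds for the brightest probe. At the bright end, 14 of the 47 genes that had several detected probes among the first 100 spanned over 4 log2. EEF1A1 had 3 probes at 13653 or higher on both arrays and another at 375 and 324. F2R, the thrombin receptor, was at rank 76 through a probe reading 12313 and 13140, while its other probe read 114.5 and 119.9. TRMT5, a tRNA methyltransferase, showed the same split, with 12884 and 11998 against 117.9 and 118.1.

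**Figure D4:**
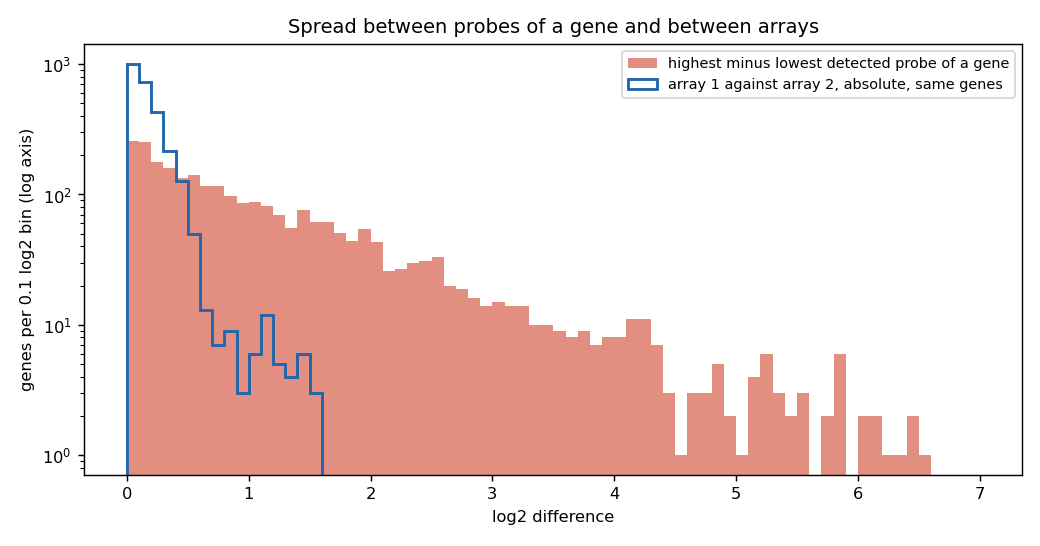
Number of genes (log axis) by log2 difference, for 2635 genes with several detected probes: filled bars give the gap between the highest and lowest probe, the line the absolute difference between arrays for the representing probe. The gap between probes (median 0.76) has a long right tail, and that between arrays (median 0.14) stays near 0 for most genes.

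The 2 untreated arrays were close for most genes. Over the 17043 detected probes their levels correlated with Pearson's r = 0.989, a description across probes that share arrays. The median absolute difference over detected genes was 0.11 log2. It rose with level, from 0.04 in the dimmest of 10 equal groups of probes to 0.19 in group 9. Differences over 2-fold were found in 85 genes (0.795%), and all 85 were brighter on array 2. Without normalization the count was 24, of which 21 were brighter on array 2 and 3 on array 1, and the median absolute difference was 0.23. After normalization, the largest excess on array 1 was that of MAD2L1, a spindle checkpoint gene, at 0.83 log2 (3724 against 1759), followed by COMMD10 (0.80), COMMD8 (0.79), RPS6 (0.77) and INSC (0.70), then C1GALT1C1, SNRPG, MRPL54, PSMA2 and SDHAF3.

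The 85 genes brighter on array 2 were taken by a cut at 2-fold through a longer tail. Their median difference (array 1 minus array 2) was -1.23, and 35 further genes were brighter on array 2 by 0.75 to 1 log2. The largest was that of RAMP2-AS1, an antisense RNA, with 2264 on array 1 and 5262 on array 2 (-1.73). It was followed by DMC1, a meiotic recombinase (1194 and 2719, -1.62), the helicase gene DDX51 (-1.56), ZNF682 (-1.54), CDKN2AIPNL (-1.53), PDE4C (-1.52), ITPK1-AS1 (-1.52), SLC25A51 (-1.51), HYPK (-1.51) and EID2B (-1.47). Their levels ran from 8.23 to 13.07 with a median of 10.06, so they were not dim probes. Other detected probes existed for 36 of the 85 genes. Those 50 probes had a median difference of 0.02 and a median level of 7.36, and 1 of them, a second probe of CREB1, also passed 2-fold (-1.08). They were dimmer by the choice of the brightest probe for each gene. Below a level of 7.597 no detected probe was over 2-fold brighter on array 2, so their small differences say little about agreement. None of the 515 detected genes of the 35 lists was among the 85, beside 0.795% of all detected genes. At that share only few list genes would be among them, so their absence says little.

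**Figure D5:**
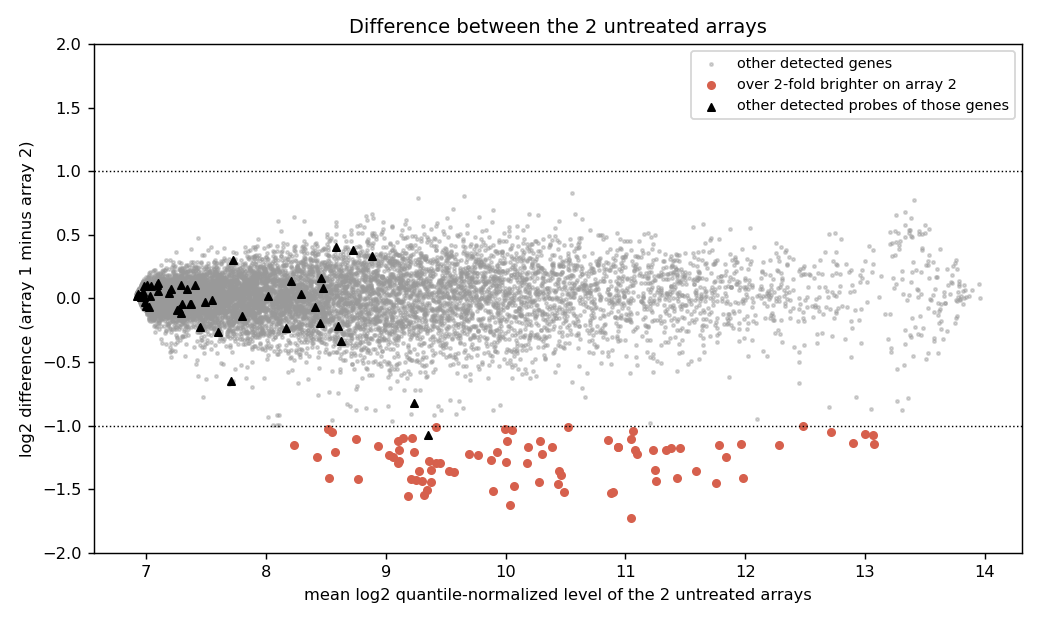
Log2 difference between the untreated arrays (array 1 minus array 2) against mean level for each detected gene, and dotted lines mark 2-fold. The 85 genes over 2-fold brighter on array 2 (red) form a band from the lower dotted line to -1.73, the other detected probes of the same genes (triangles) center on 0.02, and no gene lies above the upper line.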

How the data were processed

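Per the labels and the methods, biotin-labelled cRNA was hybridized to Illumina BeadChips and summarized by the authors in GenomeStudio, whose version is not given in the sources used here. Probes were named through the HumanHT-12 v4 annotation, with which their identifiers pair, although the methods speak of HumanRef-8. The deposited file gave the mean bead intensity of each probe, neither background-subtracted nor scaled between arrays, and a detection p-value beside it. The authors' deposited table of log2 values, quantile normalized, differed from the values recomputed here by at most 5.0e-09.

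Of 47323 probes listed, 47317 had values, and 30111 named 1 gene, 8 several and 17198 none. Probes with several genes were left unnamed. Symbols were updated through gene identifiers for 30072 probes. Intensities were log2 transformed and quantile normalized over all 6 arrays (limma 3.58.1, R 4.3.3). Net mean signal was 421 and 353 on the untreated arrays. With 2 arrays their number limits the precision, values are given as mean ± SD, and no test was made.

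Named were the 25 highest genes, the 3 lineage markers, leading and defining undetected members of 35 gene lists (946 entries, 875 measured), the 10 largest differences between arrays in each direction, and genes whose probes disagreed. Provisional names were counted only, and some genes the rule covers are left out. Lists and members were chosen with earlier results of these data known. List entries that were not measured are not analysed here. Promoter sequences were used for genes listed with a single start in the promoter table, although the annotated gene may begin further upstream, as for VGF and CHGA. The ranking and counting steps were tested on simulated data. Alternatives were another detection threshold, no normalization, quantile normalization of the untreated arrays alone, neqc background correction, the deposited table, the mean of or all detected probes, and each array alone.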

Additional observations from a re-analysis of the deposited data

How the results depend on the processing

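The number of probes detected was 19327 at a threshold of 0.05 and 12239 at a detection p of 0, and the number of genes 11617 and 8292. With each array alone it ranged from 17474 to 18488 probes and from 10864 to 11257 genes. CALCA stayed between percentile 99.57 and 99.95 of the detected genes on each array alone, CHGA between 96.48 and 97.57 and RET between 96.95 and 97.63. Under the normalizations tried none of these 3 percentiles moved by more than the spread between arrays. With the mean of a gene's detected probes in place of the brightest, CHGA moved from percentile 97.07 to 97.85 and RET from 97.33 to 91.87, since dimmer probes of RET, and of other genes, then entered. Without normalization, 24 genes differed over 2-fold between the arrays in place of 85, 21 of them brighter on array 2 and 3 on array 1, and the median absolute difference was 0.232 in place of 0.110 log2. All detected probes gave 144 such differences, 142 of them brighter on array 2. With neqc there were 124, with 1 brighter on array 1. Detected counts changed by over 1.5 times in 2 of 35 lists at a threshold of 0.05 (endothelial, from 0 to 3 genes, and liver, from 3 to 5) and in 1 list without array 1 (endothelial, from 0 to 3). No paired analysis was possible because no groups were compared.

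With 2 arrays of 1 experiment, an SD rests on 1 degree of freedom. Probes near background are bounded by the negative controls, so an undetected gene was not detectable here rather than absent. At the bright end, the first 100 genes span 0.59 log2 and their order is not resolved. Probe sequences were not used here.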

Other observations

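Detection differed between chromosomes. It was lowest for chromosome X (392 of 858 measured genes, 45.7%) and chromosome 21 (112 of 239, 46.9%), and highest for chromosome 16 (523 of 805, 65.0%) and chromosome 22 (272 of 454, 59.9%), against 53.3% of all genes. Chromosome X nevertheless held PAGE2B, BEX1 and PAGE5 at ranks 6, 29 and 179, and all 5 BEX genes measured were detected. The gene content of the chromosomes was not compared.

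The 250 bases before the start site differed in composition between detected and undetected genes. The median ratio of observed to expected CpG was 0.844 in 6169 detected and 0.421 in 4990 undetected genes, and the median GC content 65.2% and 57.2%. The GC box GGGCGG, read on both strands, was in 69.8% of detected and 40.4% of undetected genes. Among the secretory genes whose sequences are printed, the CpG ratio was 0.513 for CALCA, 0.585 for SST, 0.735 for CHGA and 1.01 for VGF, so CALCA, SST and CHGA lay below the median of detected genes.

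Among the 85 genes over 2-fold brighter on array 2, 11 (12.9%) were zinc finger genes named ZNF, against 321 of 10688 detected genes. Genes not annotated as protein coding made up 13 of the 85 (15.3%) and 4.03% of detected genes. Among probes, 54 of the 142 brighter on array 2 (38.0%) named no gene, against 18.7% of all detected probes. These shares are descriptions of 2 arrays, and no cause was tested.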
